A study of Mus musculus with 6 samples.

Results

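Histone genes were compared between C2C12 myotubes and C2C12 myoblasts, in poly(A)-selected RNA-seq libraries of 3 myotube samples and 3 myoblast samples. The members were all genes of the count table whose symbol begins in one of the older or newer ways that mouse histone genes are named: Hist1h to Hist4h, H1f, H2af and H3f, or H2ac, H2bc, H3c, H4c and H2az. The rule found 81 genes of 27179. By symbol, 66 were counted as genes of the replication-dependent histone clusters and 15 as replacement genes, which lie outside the clusters. The 66 include Hist1h2al, which RefSeq lists as a pseudogene away from the clusters. C2C12 is an immortalised mouse myoblast line that fuses into multinucleate myotubes when it is confluent and serum is lowered. Myotubes had 3 days at 100% confluence, followed by 5 days in high glucose DMEM with 2% horse serum and an insulin-transferrin-selenium-ethanolamine supplement. Myoblasts were kept subconfluent in the same base medium with 10% FBS, and both media held 4 mM glutamine. Serum, supplement, density and differentiation state differ together between the groups and cannot be told apart. The labels give triplicates and do not say that they were separate cultures, so a p-value here weighs only differences among these 6 samples, and their spread may be technical.

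Histones H2A, H2B, H3 and H4 form the nucleosome core around which DNA is wrapped, and the linker histone H1 binds where DNA enters and leaves it. Replication-dependent histone genes lie in clusters, lack introns and are transcribed mainly in S phase, when new DNA needs packaging. Their mRNAs end in a conserved stem-loop that is bound by SLBP and cut by a complex with the U7 snRNP, and they carry no poly(A) tail. Replacement genes make ordinary polyadenylated mRNAs throughout the cell cycle, and their products fill nucleosomes outside S phase. Some cluster genes also make polyadenylated transcripts that run past the stem-loop, described mainly in cells that have left the cell cycle. Poly(A) selection therefore captures tailed histone transcripts and largely misses the stem-loop form, and every level below is a level of captured RNA. In bulk samples, fewer cells with a transcript and less of it per cell cannot be told apart.

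The stem-loop is shown first because it is the defining 3′ end of replication-dependent histone mRNAs. A pattern of its 16 letters (GGC, any base, CTTTT, any base, AG, any base, GCC) was looked for on the sense strand of the GENCODE M21 transcripts of GRCm38, the assembly that mm10 names. It was found in 39 of the 66 cluster genes and in 1 replacement gene, H2afx, against 0.205% of 21901 protein-coding genes. A gene with no match only lacks these letters in the annotated transcripts, some of which may stop short of it. The first 4 sequences below are of cluster genes higher in myotubes by the test, the next 3 are of cluster genes that were not, and the last is that of H2afx. Capitals mark the 16 letters, all sequences are printed 5′ to 3′, and coordinates are those of the capitals on GRCm38.
H1f2 (chr13:23739512-23739527, plus strand): aaaaGGCTCTTTTCAGAGCCaccac
H1f4 (chr13:23621782-23621797, minus strand): caaaGGCTCTTTTCAGAGCCaccca
H1f3 (chr13:23555787-23555802, plus strand): aaacGGCTCTTTTCAGAGCCaccca
H3c14 (chr3:96247327-96247342, plus strand): caaaGGCTCTTTTCAGAGCCaccac
H4c9 (chr13:22040966-22040981, minus strand): taaaGGCCCTTTTTAGGGCCaccac
H2bc11 (chr13:22043638-22043653, plus strand): caaaGGCTCTTTTCAGAGCCacgca
H2ac11 (chr13:22042483-22042498, minus strand): caaaGGCTCTTTTCAGAGCCaccta
H2afx (chr9:44335240-44335255, plus strand): caaaGGCCCTTTTAAGGGCCaccac
H1f2, H1f4, H1f3, H3c14, H2bc11 and H2ac11 carried the same 16 letters, which 24 members shared. H2bc11 and H2ac11 hold the same letters as H1f2, and no H2bc11 or H2ac11 read was counted in the myotube libraries. Their myoblast counts were low too, at 3, 11 and 4 for H2bc11 and 2, 2 and 2 for H2ac11, so the absence of H2ac11 reads says little. The annotated 3′ ends differ more. The longest GENCODE transcript goes on for 840 bases past the stem-loop of H1f2, 1153 bases past that of H1f4, 4884 bases past that of H1f3 and 1167 bases past that of H3c14, and only 23 bases past those of H2bc11 and H2ac11. RefSeq ended the gene within 10 bases of the stem-loop in 36 members, H1f2 among them. Which annotation the reads were counted on is not stated. Other members with these letters had other counts. H2ac8, with 151 bases past the stem-loop, had 3 counts over the myotube libraries and 18 over the myoblast libraries. H2ac19, with 35 bases, had 3 over the myotube libraries and 2 over the myoblast libraries. What part the 3′ end had in the counts was not tested.

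Of the cluster genes, 55 lie on chromosome 13 and 10 on chromosome 3, and H2ac5-ps, a member at 0 counts, was the 1 member not matched to the RefSeq gene table. Promoters of 300 bases, 250 before and 50 after the start, were read from RefSeq (GRCm38.p6) for 72 members. Those of H1f2 and H1f4 are printed as linker histone genes of the cluster that were called higher in myotubes. Capitals mark AAACACA (the core of the H1 box, an element of H1 promoters), CCAAT and TATAAA, looked for on both strands, and the matches shown do not overlap one another.
H1f2 promoter (chr13:23738557-23738856, plus strand): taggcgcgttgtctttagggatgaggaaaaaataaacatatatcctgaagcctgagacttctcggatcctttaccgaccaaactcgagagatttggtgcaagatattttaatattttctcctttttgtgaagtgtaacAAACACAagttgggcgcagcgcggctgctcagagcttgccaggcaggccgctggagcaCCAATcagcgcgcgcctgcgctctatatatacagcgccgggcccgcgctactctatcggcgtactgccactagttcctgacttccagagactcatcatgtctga
H1f4 promoter (chr13:23622509-23622808, minus strand): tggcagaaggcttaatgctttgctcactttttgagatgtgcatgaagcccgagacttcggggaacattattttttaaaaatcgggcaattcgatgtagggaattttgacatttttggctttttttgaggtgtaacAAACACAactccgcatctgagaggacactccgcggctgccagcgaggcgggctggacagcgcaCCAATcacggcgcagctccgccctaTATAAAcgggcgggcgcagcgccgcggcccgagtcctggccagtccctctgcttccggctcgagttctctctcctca
AAACACA was present in the promoters of 5 of the 6 cluster H1 genes, in 15.3% of the 59 cluster promoters, in 7.69% of the 13 replacement promoters and in 7.14% of 27025 promoters of all genes. TATAAA was present in 57.6% of cluster promoters, 7.69% of replacement promoters and 14.2% of all promoters. CCAAT was present in 86.4% of cluster promoters, 69.2% of replacement promoters and 37.9% of all promoters. The H1f2 window holds AAACACA and CCAAT and no TATAAA, and the H1f4 window holds all of them. A match is a description of letters and not of a bound site.

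Library totals ranged from 7370169 to 8339589 counts in myotubes and from 10076945 to 11723881 counts in myoblasts. Levels are given as CPM, the usual count per library size unit, after TMM scaling of the libraries. All 8 listed markers of cycling cells were called lower in myotubes, as were 39.2% of all genes tested by edgeR. They summed to 188 to 198 CPM in myotubes, against 2145 to 2165 CPM in myoblasts. Top2a, which untangles replicated DNA, averaged 52.7 ± 3.60 CPM in myotubes and 651 ± 18.5 CPM in myoblasts, and Mki67, a proliferation antigen, 34.2 ± 1.72 CPM in myotubes and 558 ± 13.5 CPM in myoblasts (SD, n = 3 each). All 6 myotube markers were called higher in myotubes, as were 40.2% of all genes tested. They summed to 12060 to 12600 CPM in myotubes, against 67.2 to 85.7 CPM in myoblasts, led by Acta1 and Myh3. Of 6 markers of myoblasts and reserve cells, 2 were higher, 3 lower and 1 not called, with sums of 507 to 529 CPM in myotubes and 640 to 658 CPM in myoblasts. The lower sum came from Id3, which averaged 5.32 CPM in myotubes and 260 CPM in myoblasts. Myod1 and Myf5 were lower by little (log2 fold changes −0.16 and −0.13). Cd34 and Heyl were higher (1.15 and 1.94), and Pax7 was not called. Markers of adipocytes, of endothelium and of macrophages each summed to at most 2.40 CPM in any library, with Adipoq and Adgre1 at 0. Of the neuronal markers Snap25 was at 0, and Tubb3 was lower in myotubes (log2 fold change −2.78). What part these differences had in the histone values was not tested.

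Of the 81 members, 17 had 0 counts in all 6 libraries, 47 had counts too low for the test and 17 were tested. The test was edgeR's quasi-likelihood F test over 12800 genes, with Benjamini-Hochberg adjusted p-values called below 0.05. It called 14 of the 17 members, and 79.5% of all genes tested. Among the 8 cluster genes tested, 6 were higher in myotubes, 0 were lower and 2 were not called, where 40.2% of all genes were higher and 39.2% lower. Without adjustment, 1 cluster gene was lower at p below 0.05 by edgeR, and 0 were lower by DESeq2 or limma-voom with or without adjustment. Among the 9 replacement genes tested, 3 were higher, 5 were lower and 1 was not called. The libraries of the groups did not overlap in CPM for 14 of the 17 members and for 80.5% of all genes tested. The median log2 fold change, myotubes over myoblasts, was 1.80 over the tested cluster genes, −0.40 over the tested replacement genes and 0.02 over all genes tested. The members tested are those with enough counts in at least 3 libraries, of either group or of both, so these counts do not speak for the 64 that were not. Among the 6 higher cluster genes, H1f4 passed the filter only through myotubes. Among the 5 lower replacement genes, H2afy3 passed it only through myoblasts. Their directions were built into their being tested, yet both enter the counts and medians above.

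**Figure D1:**
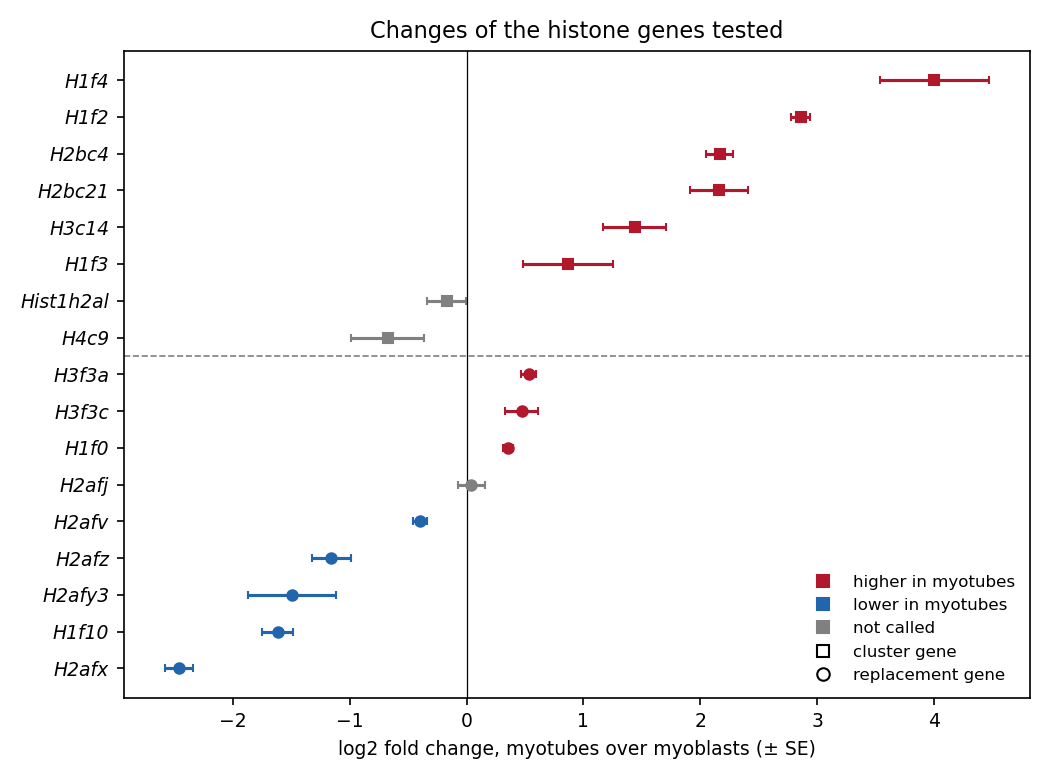
Log2 fold change of myotubes over myoblasts, with its standard error (SE), for the 17 histone genes tested. Squares are cluster genes and circles replacement genes. Red is called higher in myotubes, blue called lower and grey not called by edgeR, and the values run from 4.00 for H1f4 to −2.46 for H2afx.

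The linker histone H1f2 (Hist1h1c, chr13:23738807-23739531), which encodes H1.2, had the most reads of any cluster gene in both groups. Its counts were 1008, 972 and 1323 in myotubes and 229, 251 and 213 in myoblasts, or 144, 132 and 167 CPM in myotubes and 20.6, 20.4 and 20.1 CPM in myoblasts. Every myotube library lay far above every myoblast library. The log2 fold change was 2.86 (SE 0.08, edgeR adjusted p = 1.32e-19). H1f2 alone made up 68.5 to 73.0% of the cluster reads in myotubes and 40.7 to 43.2% in myoblasts, with no correction for gene length.

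H1f4 (Hist1h1e, chr13:23621777-23622558), which encodes the linker histone H1.4, had 17, 14 and 26 counts in myotubes and 2, 2 and 1 counts in myoblasts. It passed the filter only through the myotube libraries, so a difference was built into its being tested. Its log2 fold change was 4.00 (SE 0.47, edgeR adjusted p = 2.15e-08), and 25.7% of its annotated transcript overlaps another gene on the same strand. H1f3 (Hist1h1d, chr13:23555032-23555807), which encodes H1.3, had 6, 14 and 15 counts in myotubes and 11, 7 and 11 counts in myoblasts. The H1f3 groups overlapped. Its log2 fold change of 0.87 (SE 0.38, edgeR adjusted p = 0.0407) kept its call under only 4 of 13 alternatives. It was not called without myotubes replicate 2 (0.71), myotubes replicate 3 (0.70), myoblasts replicate 1 (0.98) or myoblasts replicate 2 (0.62). H1f1 and H1f5, the remaining somatic H1 genes of the cluster, had 3 and 4 counts over the myotube libraries and 7 and 8 counts over the myoblast libraries, and the testis gene H1f6 had none.

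Both H2B genes tested were higher in myotubes. H2bc4 (Hist1h2bc, chr13:23684199-23692480) had 205, 249 and 267 counts in myotubes and 91, 73 and 80 counts in myoblasts. In CPM it stood at 29.3, 33.7 and 33.7 in myotubes and at 8.18, 5.94 and 7.54 in myoblasts, with no overlap and a log2 fold change of 2.17 (SE 0.12, edgeR adjusted p = 4.28e-15). Of its 50-base transcript windows, 30.6% occur exactly in another gene, so reads from there cannot be placed with certainty. H2bc21 (Hist2h2be, chr3:96221072-96223738) had 44, 44 and 33 counts in myotubes and 14, 15 and 12 counts in myoblasts. The groups again did not overlap, the log2 fold change was 2.16 (SE 0.25, edgeR adjusted p = 1.92e-08), and none of its windows is copied elsewhere.

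The core histone genes of the other families were few and low. H3c14 (Hist2h3c1, chr3:96246685-96247348), which encodes an H3, had 27, 19 and 31 counts in myotubes and 14, 15 and 14 counts in myoblasts. Its log2 fold change was 1.44 (SE 0.27, edgeR adjusted p = 3.39e-05), but 100% of its windows occur in other genes, among them its duplicate H3c15. Reads from windows that H3c14 and H3c15 share cannot be told apart. In addition, 100% of the annotated H3c14 transcript is covered by other gene annotation on the same strand, so its counts are uncertain. H4c9 (Hist1h4i), an H4 gene, had 9, 10 and 10 counts in myotubes and 28, 27 and 16 counts in myoblasts. All its myotube libraries were below all its myoblast libraries in CPM, and the log2 value of −0.68 (SE 0.31) missed the threshold with an edgeR adjusted p of 0.0508. H4c9 was called lower without myoblasts replicate 3 (−0.85) and with total-count scaling (−0.82). Hist1h2al (chr13:51200084-51203066) had 38, 51 and 46 counts in myotubes and 66, 92 and 74 counts in myoblasts, with overlapping CPM and a log2 value of −0.17 (SE 0.16, edgeR adjusted p = 0.344). Of its windows 67.6% are copied.

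**Figure D2:**
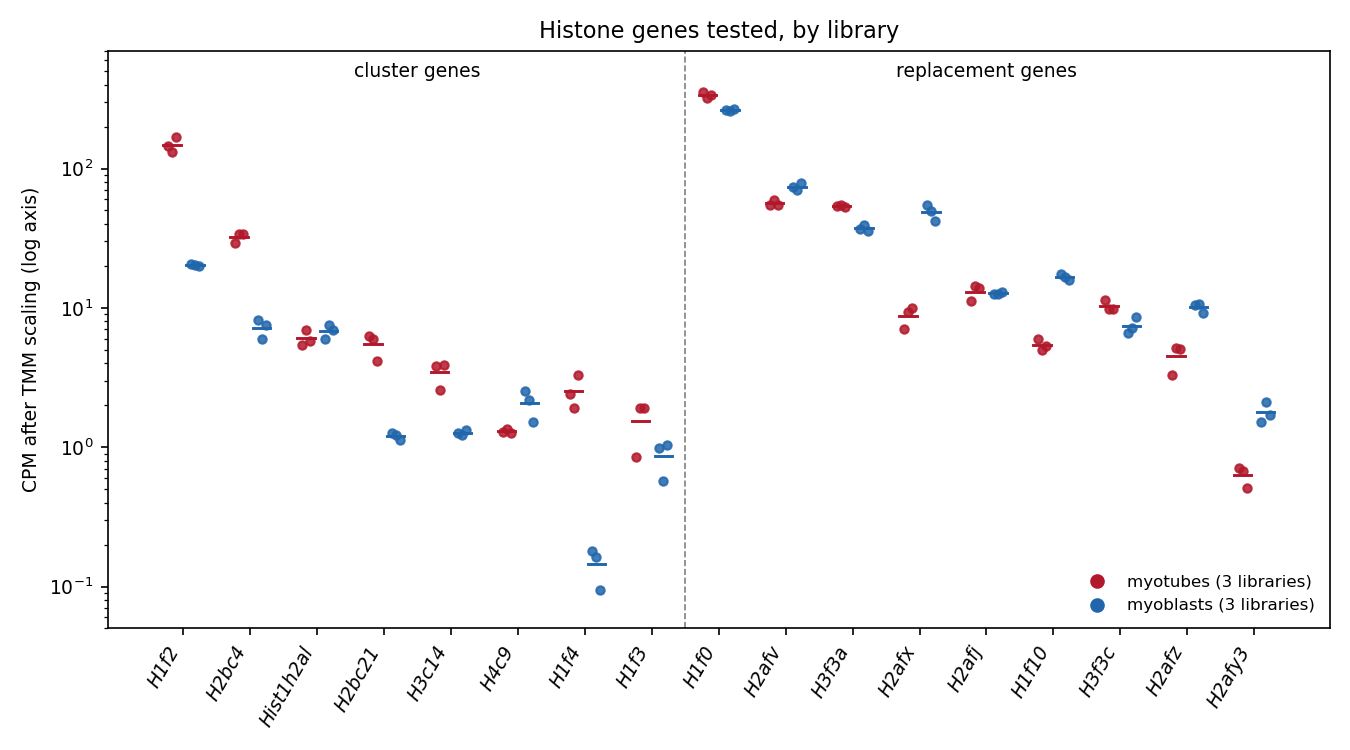
CPM on a log axis of each tested histone gene in the 3 myotube libraries (red, left) and the 3 myoblast libraries (blue, right), with horizontal lines at the group means. Genes are ordered by mean level within the cluster genes and the replacement genes. H1f2 and H2bc4 stand apart in red among the cluster genes, and H2afx, H1f10, H2afz and H2afy3 lie lower in red among the replacement genes.

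The other 58 cluster genes were below the filter, 12 of them at 0 in all libraries. The 46 with counts had 1 to 37 counts over all 6 libraries together. Pooled over the libraries of a group, 34 of the 46 had a lower CPM in myotubes and 12 a higher one. Of these, 20 had counts only in myoblasts and 1 only in myotubes. The myoblast libraries were deeper, at 10076945 to 11723881 counts against 7370169 to 8339589 in myotubes. A gene with few reads therefore reaches 0 more readily in myotubes. The shares of all low-count genes with these patterns were not computed, so neither count is read as a trait of histone genes. The 58 genes summed to 4.14, 6.36 and 7.71 CPM in myotubes and to 9.71, 9.51 and 6.78 CPM in myoblasts, and the groups overlapped. H2bc11 (Hist1h2bj), an H2B gene, had 0 counts in each myotube library and 3, 11 and 4 counts in the myoblast libraries. With 3 counts assumed over the myotube group, H2bc11 would be 3.93-fold lower in myotubes, and 2.39-fold lower without myoblasts replicate 2. The myoblast counts are taken as exact there, so neither value is a lower bound. H3c3 (Hist1h3c), an H3 gene, had 1, 0 and 0 counts in myotubes and 4, 6 and 5 counts in myoblasts, a pooled ratio of 0.102 with an exact 95% counting interval of 0.00242 to 0.661. In the other direction, H3c15 (Hist2h3c2) had 5, 8 and 11 counts in myotubes and 5, 3 and 5 counts in myoblasts, and H2ac6 (Hist1h2ac), an H2A gene beside H2bc4 on chromosome 13, had 2, 10 and 7 counts in myotubes and 6, 1 and 2 counts in myoblasts.

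A fit with no filter on low counts also tested these genes. Of the 46, it called 2 higher in myotubes, H3c15 and H2ac6, and 8 lower, where 30.0% of the 18455 genes in that fit were higher and 30.1% lower. The 8 were H2bc11, H3c3, H2ac15, H2ac8, H4c2, H2bc14, H4c11 and H2bc3, and H2bc11, with an edgeR adjusted p of 0.000452, was the 1 with an adjusted p below 0.01. The p-values of the fit with no filter are not comparable with those of the main test, though the counts are the same. For H2afx the edgeR adjusted p was 2.65e-135 with no filter and 9.76e-16 in the main test. For H1f3 it was 0.0644 with no filter and 0.0407 in the main test. Each of the calls among the 46 rests on at most 24 counts in a group, and many of the genes share sequence. More than 50% of the windows are copied in 35 of the 66 cluster genes.

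The cluster genes were then grouped by annotated 3′ end, a division chosen after the values were seen. The longest GENCODE transcript ran more than 100 bases past the stem-loop in 18 genes, 100 bases or less in 21, and 27 had no match to the 16 letters. Of the 18 genes with a long end, 5 were tested and 4 of them were higher in myotubes, as were 40.2% of all genes tested. The 4 include H1f4, which passed the filter only through myotubes, and H1f3, whose call held under 4 of 13 alternatives. None of the 21 with a short end had enough counts to be tested. The division holds only for GENCODE: RefSeq ends H1f2, H1f4, H1f3, H3c14 and H4c9, the 5 tested, 4 to 6 bases past the stem-loop, and by it they would be short-ended. Of the 27 with no match, 3 were tested and 2 were higher, H2bc4 and H2bc21. Among genes below the filter, those with a short end summed to 0.856, 1.76 and 1.14 CPM in myotubes and to 2.61, 4.07 and 2.36 CPM in myoblasts, with no overlap. Those with no match summed to 0.714, 0.271 and 1.64 CPM in myotubes and to 2.61, 2.68 and 1.79 CPM in myoblasts, also with no overlap. Those with a long end summed to 2.57, 4.33 and 4.93 CPM in myotubes and to 4.49, 2.76 and 2.64 CPM in myoblasts and overlapped. Longer annotated ends come from longer annotated transcripts, which give more room for reads, and what part that had was not tested.

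**Figure D3:**
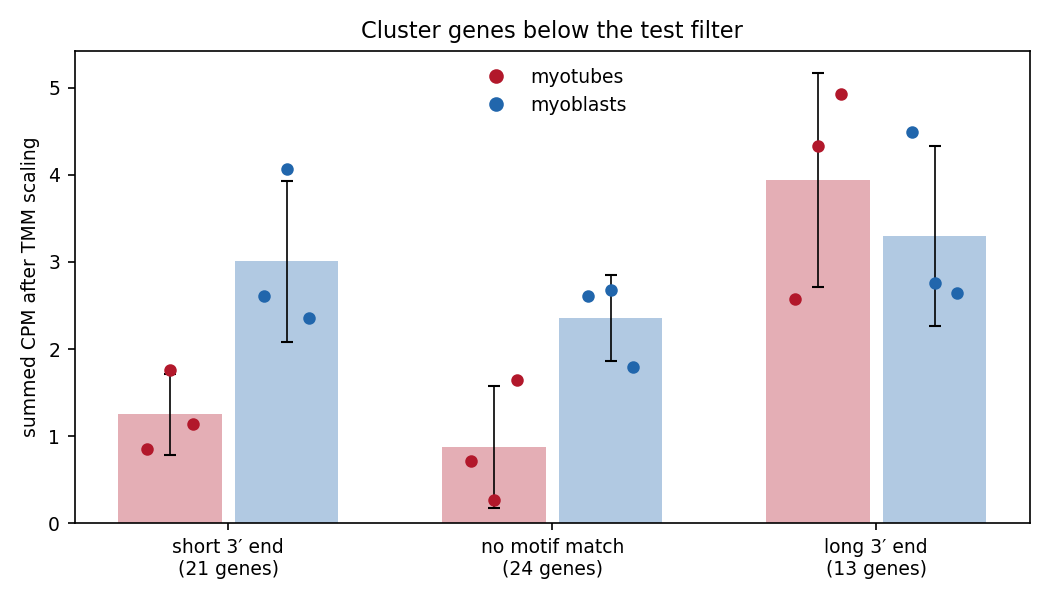
Summed CPM of the cluster genes below the test filter, by annotated 3′ end, in myotubes (red, left) and myoblasts (blue, right). Bars are means, error bars the SD and points the 3 libraries of each group, and the short-end genes averaged 1.25 CPM in myotubes and 3.01 CPM in myoblasts.

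Summed over all 66 cluster genes, the level was 206 ± 19.9 CPM in myotubes and 48.6 ± 2.08 CPM in myoblasts (SD, n = 3 each). Without H1f2 the sum was 58.6 ± 4.47 CPM in myotubes and 28.2 ± 1.82 CPM in myoblasts. By family, cluster H1 genes summed to 152 ± 18.9 CPM in myotubes and 21.8 ± 0.500 CPM in myoblasts, and cluster H2B genes to 39.2 ± 2.10 CPM in myotubes and 11 ± 1.22 CPM in myoblasts. Cluster H3 genes summed to 5.17 ± 1.20 CPM in myotubes and 3.06 ± 0.232 CPM in myoblasts. Cluster H2A genes stood at 7.59 ± 1.74 CPM in myotubes and 8.78 ± 0.884 CPM in myoblasts and overlapped between the groups. Most of that was Hist1h2al, the pseudogene away from the clusters, at 6.05 CPM in myotubes and 6.79 CPM in myoblasts. The other 18 H2A genes summed to 1.54 ± 1.02 CPM in myotubes and 1.99 ± 0.203 CPM in myoblasts. Cluster H4 genes stood at 2.25 ± 0.340 CPM in myotubes and 3.94 ± 0.822 CPM in myoblasts. A sum over members chosen with earlier results known has no test here.

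Among replacement genes, the 3 called higher in myotubes were H1f0, H3f3a and H3f3c. H1f0 (chr15:79028212-79030504) encodes H1.0, a linker histone known to accumulate in differentiated and quiescent cells. It stood at 353, 318 and 337 CPM in myotubes and at 261, 261 and 269 CPM in myoblasts. The groups did not overlap, and the log2 fold change was 0.35 (SE 0.04, edgeR adjusted p = 2.74e-08). Per kilobase of the longest GENCODE transcript, H1f0 stood at 164 ± 8.49 CPM in myotubes and 128 ± 2.27 CPM in myoblasts, and H1f2 at 94.6 ± 11.6 CPM in myotubes and 13.04 ± 0.167 CPM in myoblasts. Per kilobase of the shorter RefSeq gene span, H1f2 stood at 204 ± 24.9 CPM in myotubes and 28.1 ± 0.360 CPM in myoblasts, and H1f0 at 147 ± 7.61 CPM in myotubes and 115 ± 2.03 CPM in myoblasts. H1f0 was thus above H1f2 in myoblasts with both lengths, and which of them was higher in myotubes depends on the length used.

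H3f3a and H3f3b encode the same protein, the H3 replacement variant H3.3. H3f3a (chr1:180802560-180813605) stood at 54.0, 54.6 and 53.3 CPM in myotubes and at 36.7, 39.2 and 35.8 CPM in myoblasts. The log2 fold change was 0.53 (SE 0.06, edgeR adjusted p = 4.03e-08), 30.3% of its windows are copied in other genes, and 22.5% of its transcript overlaps an antisense gene. H3f3b was far below the filter, with 2, 1 and 4 counts in myotubes and 5, 6 and 10 counts in myoblasts. Only 8.4% of H3f3b windows are copied, and its annotated transcript has no overlap with another gene. Why so few H3f3b reads were counted was not tested, and the replacement sums given below hold few of them. H3f3c (chr2:119665116-119666152), with 73.8% of its windows copied in H3f3a and others, stood at 11.4, 9.75 and 9.85 CPM in myotubes and at 6.65, 7.15 and 8.57 CPM in myoblasts. Its log2 fold change was 0.47 (SE 0.14, edgeR adjusted p = 0.00425), and reads shared with H3f3a cannot be placed.

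The 5 replacement genes called lower were led by H2afx. H2afx (chr9:44334715-44336077) encodes H2A.X, which is phosphorylated around DNA breaks, and its transcripts are known to end either at the stem-loop printed above or at a downstream poly(A) site. It had 49, 69 and 79 counts in myotubes and 604, 611 and 445 counts in myoblasts, or 6.99, 9.34 and 9.98 CPM in myotubes and 54.3, 49.7 and 41.9 CPM in myoblasts. The groups lay far apart, with a log2 fold change of −2.46 (SE 0.12, edgeR adjusted p = 9.76e-16). H1f10 (chr6:87980421-87981482), the linker histone H1.X, stood at 5.99, 5.01 and 5.31 CPM in myotubes and at 17.5, 16.6 and 15.9 CPM in myoblasts. Its log2 fold change was −1.62 (SE 0.13, edgeR adjusted p = 3.45e-11), so the replacement linker histones H1f0 and H1f10 moved in opposite directions.

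H2afz and H2afv encode the closely related variants of H2A.Z, which occupies nucleosomes at promoters. H2afz (chr3:137864487-137866922) stood at 3.28, 5.14 and 5.05 CPM in myotubes and at 10.4, 10.6 and 9.23 CPM in myoblasts, with a log2 fold change of −1.16 (SE 0.17, edgeR adjusted p = 7.33e-07). Of its windows 69.6% are copied elsewhere, and its level is uncertain for that reason. H2afv (chr11:6427226-6444511) stood at 54.5, 59.8 and 54.3 CPM in myotubes and at 73.3, 70.1 and 78.9 CPM in myoblasts, with a log2 fold change of −0.40 (SE 0.06, edgeR adjusted p = 2.46e-06) and no copied window. Neither gene overlapped between the groups. H2afy3, which RefSeq lists as a transcribed pseudogene of the macroH2A kind, had 5, 5 and 4 counts in myotubes and 17, 26 and 18 counts in myoblasts. It passed the filter only through the myoblast libraries, and its log2 fold change was −1.49 (SE 0.38, edgeR adjusted p = 0.000866).

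H2afj, which encodes H2A.J, was the 1 replacement gene tested that was not called. It stood at 11.1, 14.4 and 13.8 CPM in myotubes and at 12.7, 12.5 and 13.1 CPM in myoblasts, and its log2 value of 0.04 (SE 0.12, edgeR adjusted p = 0.756) changed sign with total-count scaling, with no filter and without myotubes replicate 2. H1f7, H1f8, H2afb1, H2afb2 and H2afb3, genes known from germ cells, had 0 counts in every library. Summed over the 15 replacement genes, the level was 489 ± 12.2 CPM in myotubes and 473 ± 3.24 CPM in myoblasts, an order that turned round when libraries were scaled by total counts. H1f0 alone averaged 336 CPM in myotubes and 263 CPM in myoblasts, the largest part of both sums. Replacement H1 genes together summed to 342 ± 17.9 CPM in myotubes and 280 ± 4.04 CPM in myoblasts. Replacement H2A genes summed to 83.2 ± 6.36 CPM in myotubes and 147 ± 4.22 CPM in myoblasts, and replacement H3 genes to 64.6 ± 1.0 CPM in myotubes and 45.3 ± 1.53 CPM in myoblasts. The cluster sum was 42.1 ± 4.03% of the replacement sum in myotubes and 10.3 ± 0.453% in myoblasts. H1f2 was the largest term of the cluster sum and H1f0 that of the replacement sum, so this percentage rests heavily on these genes.

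Some histone genes with other symbols fall outside the rule and were named after their values were seen. Macroh2a1 and Macroh2a2, which encode macroH2A variants, were lower in myotubes, with log2 fold changes of −0.59 (SE 0.05, edgeR adjusted p = 2.87e-10) and −1.54 (SE 0.11, edgeR adjusted p = 4.11e-12). H2aw, an H2A gene at a smaller cluster, was higher, with a log2 fold change of 0.53 (SE 0.15, edgeR adjusted p = 0.00281). Of the annotated H2aw transcript 33% is overlapped on the same strand and 31.5% of its windows are copied, so its counts are less certain.

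Genes that make and handle histones were taken as 3 lists, beside 40.2% of all genes tested that were higher in myotubes and 39.2% that were lower. Of 17 genes for histone mRNA synthesis, 3′ end processing and decay, 1 was higher, 13 were lower and 3 were not called, with a median log2 fold change of −0.58. Zfp473, among the 13, had 3, 5 and 7 counts in myotubes and 15, 13 and 16 counts in myoblasts, and reached the filter level only in myoblasts. Slbp, whose product binds the stem-loop, averaged 17.0 ± 1.74 CPM in myotubes and 59.9 ± 2.06 CPM in myoblasts, a log2 fold change of −1.81 (SE 0.08, edgeR adjusted p = 7.97e-17). Ccne2, a cyclin of S-phase entry, averaged 3.17 ± 0.318 CPM in myotubes and 26.6 ± 1.18 CPM in myoblasts (log2 fold change −3.06, SE 0.14). Srrt, which encodes ARS2, a cap-complex partner needed for histone mRNA 3′ end formation, averaged 39.9 ± 2.28 CPM in myotubes and 182 ± 10.3 CPM in myoblasts (log2 fold change −2.19, SE 0.06). The 1 gene called higher was Lsm10, a subunit of the U7 snRNP, at 21.3 ± 2.25 CPM in myotubes and 17.8 ± 1.77 CPM in myoblasts (log2 fold change 0.26, SE 0.10), a call kept under 6 of 13 alternatives. Lsm10 was not called without myotubes replicate 1 (0.19) or 2 (0.24), or without myoblasts replicate 2 (0.21) or 3 (0.21).

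All 10 genes of the list of replication-coupled chaperones were lower in myotubes, as were 39.2% of all genes tested, with a median log2 fold change of −2.16. The changes were uneven, and the smallest were those of Rbbp4 at −0.16 (SE 0.04) and Ipo4 at −0.21 (SE 0.05). Of the annotated Ipo4 transcript 60.1% overlaps another gene on the same strand. No gene of this list was higher by edgeR, DESeq2 or limma-voom, whether p was adjusted or not (0 of 10). Chaf1a and Chaf1b encode subunits of the chromatin assembly factor CAF-1. Chaf1b averaged 2.50 ± 0.194 CPM in myotubes and 39.9 ± 1.74 CPM in myoblasts (log2 fold change −3.98, SE 0.13), and Chaf1a averaged 7.56 ± 0.564 CPM in myotubes and 93.6 ± 3.34 CPM in myoblasts (log2 fold change −3.63, SE 0.08). Of the annotated Chaf1a transcript 48.6% overlaps an antisense gene, so its counts are less certain. Mms22l, which acts with Tonsl at stalled forks, averaged 2.85 ± 0.507 CPM in myotubes and 33.8 ± 1.36 CPM in myoblasts (log2 fold change −3.55, SE 0.13).

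Of 20 variant and general chaperone genes, 3 were higher, 12 were lower and 5 were not called, beside 40.2% higher and 39.2% lower over all genes tested, with a median log2 fold change of −0.40. Cenpa, the centromeric H3 variant kept with this list, averaged 8.15 ± 0.986 CPM in myotubes and 87.7 ± 3.84 CPM in myoblasts, a log2 fold change of −3.43 (SE 0.09, edgeR adjusted p = 7.13e-22). Its chaperone Hjurp averaged 10.5 ± 0.706 CPM in myotubes and 31.4 ± 0.606 CPM in myoblasts (log2 fold change −1.59, SE 0.10). Ssrp1, a subunit of the FACT complex, averaged 150 ± 2.55 CPM in myotubes and 348 ± 6.87 CPM in myoblasts (log2 fold change −1.21, SE 0.04). Of the HIRA complex, which deposits H3.3 outside S phase, Hira and Cabin1 were lower, with log2 fold changes of −0.93 (SE 0.06) and −0.69 (SE 0.05). Of the annotated Hira transcript 65.9% overlaps another gene on the same strand, so its counts are less certain. The HIRA complex subunits Ubn1 and Ubn2 were higher, with log2 fold changes of 0.22 (SE 0.05) and 0.18 (SE 0.05), calls that were lost with total-count scaling. Daxx and Atrx, which place H3.3 at repeats and telomeres, were lower by less, with log2 fold changes of −0.25 (SE 0.07) and −0.20 (SE 0.05).

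**Figure D4:**
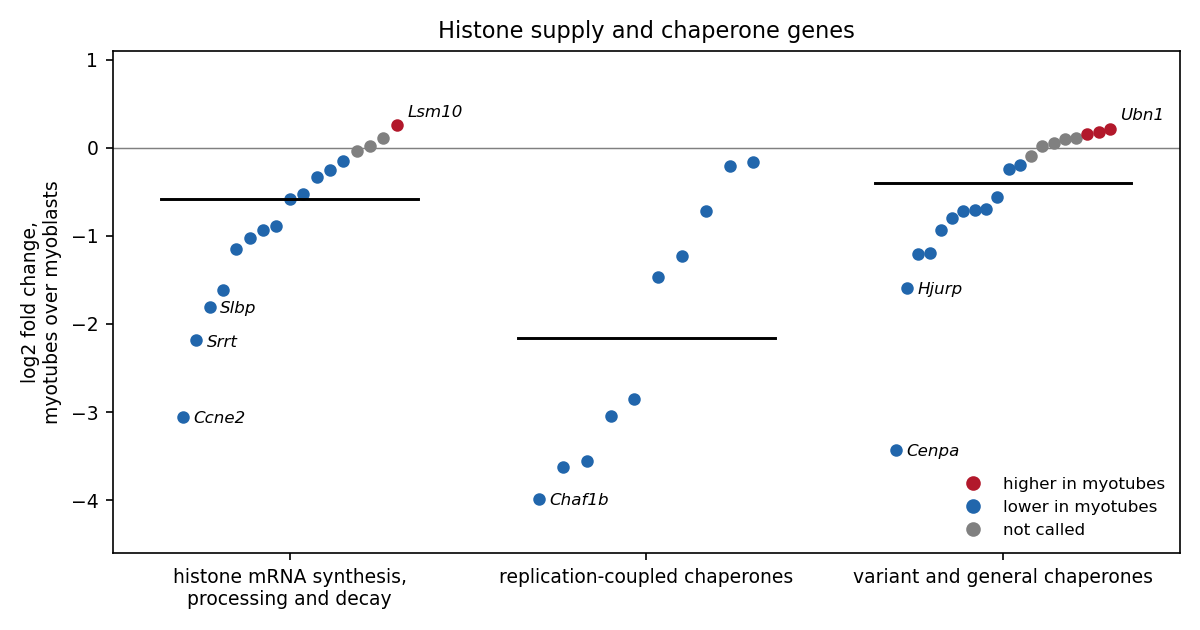
Log2 fold change of myotubes over myoblasts for each gene of the 3 lists, ordered within a list, with horizontal lines at the medians of −0.58, −2.16 and −0.40. Red is called higher in myotubes, blue called lower and grey not called by edgeR, and the replication-coupled chaperones are all blue.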

How the data were processed

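Poly(A) RNA of 3 myotube and 3 myoblast samples was measured. TRIzol RNA went into a stranded mRNA kit, per the labels' protocols. The values the authors deposited are raw counts of reads, 1 row for each gene with its Entrez ID and symbol. Per the submitters' processing notes fastp, STAR, featureCounts and mm10 were used. Not given in the sources used here are the versions, the annotation, the strand setting and how reads with several matches were treated. Counts of copied or antisense-overlapped genes are therefore uncertain.

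Differences were tested with edgeR 4.0.16 in R 4.3.3: filterByExpr (minimum count 10, minimum total 15), TMM (factors 0.949 to 0.952 in myotubes and 1.05 to 1.055 in myoblasts), the robust quasi-likelihood F test of myotubes over myoblasts, and Benjamini-Hochberg adjustment over 12800 genes with a threshold of 0.05. SE was taken as the size of the log2 fold change over the square root of F. The biological coefficient of variation was 3.56%. The steps were checked on simulated counts. Intervals are exact binomial at 95% and cover counting error only. A fold set against the floor of 3 counts over a group takes the counts of the other group as exact. Sequence windows, the stem-loop and overlaps come from GENCODE M21 transcripts and promoters from RefSeq, read with Python 3.11.15.

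Replicates were compared first: none held identical values, and their chi-square over its degrees of freedom was 1.35 to 3.22. The members and gene lists were chosen with earlier results of these data known. Values in every library are given for replacement genes of at least 1 CPM on average, for the 6 largest called changes each way and the 6 most abundant cluster genes. From each supply list come the 3 largest changes in the main direction and the 2 largest in the other, with Slbp and Cenpa. Genes below the filter, Hira, Cabin1, Daxx, Atrx, Rbbp4, Ipo4, H1f1, H1f5 and the histone genes outside the rule were named after their values were seen. Alternatives were DESeq2 1.42.0, limma 3.58.1 (voom), other scalings and filters, a replicate block, leaving out each library, and leaving out copied or unstable members.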

Additional observations from a re-analysis of the deposited data

How the results depend on the processing

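Of 29 genes named by rule, 23 kept their direction and side of the threshold under all 13 alternatives. The exceptions were H1f3 (kept in 4, adjusted p 0.0103 to 0.172), H4c9 (0.0186 to 0.177), Lsm10 (0.00627 to 0.337), Ubn1 (0.000204 to 0.189), Ubn2 (0.000665 to 0.537) and H2afj, whose log2 value was −0.11 with total counts, −0.0053 with no filter and −0.028 to 0.14 when 1 library was left out, negative without myotubes replicate 2. Scaling by total counts moved the median log2 value of all genes by −0.15, gave 4269 genes higher and 5935 lower against 5146 and 5024 with TMM, called 1 cluster gene lower, called 0 supply and chaperone genes higher against 4, and turned the log2 ratio of the replacement sums to −0.10, against 0.05. That of the cluster sums was 1.94 with total counts, 2.40 with only members of at most 50% copied windows and 1.06 without H1f2, against 2.09. With no filter 7 cluster genes were higher and 8 lower of 54 tested. Leaving out 1 library gave 5 to 7 cluster genes higher and 0 to 1 lower, H4c9 being called lower without myoblasts replicate 3. Replacement counts stayed at 3 higher and 5 lower in those fits. Whether a replicate number marks a shared culture or day is not said in the labels. Deviations of same-numbered libraries correlated at −0.00844, 0.00179 and −0.00386 over all genes tested. Genes with low counts entered these values, and counting error could hide a shared culture or day, so they cannot exclude one. With the replicate block, 5142 genes were higher and 5019 lower, with 5 cluster genes higher, 3 and 5 replacement genes, and 4 and 35 supply and chaperone genes. Depth limits the 46 low cluster genes: at 3 counts over a group the floor is 0.134 CPM in myotubes and 0.0881 CPM in myoblasts.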
